A study of Mus musculus with 24 samples.

Results

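The genes described here carry a bromodomain but lie outside the BET family. They are 32 mouse genes, named by symbol and looked up by that symbol among the 26636 genes with 1 entry in each of the 24 files. All 32 were found, and 31 passed the filter of at least 1 FPKM in at least 3 libraries, which left 13801 genes to test. FPKM scales the fragments of a gene by its transcript length and by the reads mapped in the library. The one member that did not pass was Trim66, a TRIM family co-repressor, which was listed between 0 and 0.334 FPKM. The rule names the genes by symbol and uses no measured value, although earlier results of these data were known when the list was made.

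A bromodomain is a small protein fold that binds acetylated lysine, mostly on histone tails. The members sit in complexes that write acetylation, slide or evict nucleosomes, or repress transcription. The BET proteins, which recruit the elongation factor P-TEFb, form a separate branch, and it is their bromodomains that JQ1 was designed to occupy. In the developing cortex, SWI/SNF remodellers exchange subunits as progenitors leave the cell cycle, and the acetyltransferases encoded by Ep300 and Crebbp act at enhancers of both neuronal and glial genes.

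The series compared the enantiomers of JQ1 in cultures of neural progenitor cells, with reference to how BET inhibition alters neuron and glia formation. All groups held passage 3 cells of C57BL/6 mice, which came from the cortex at embryonic day 12 and were expanded in bFGF, a fibroblast growth factor. Every culture was in differentiation medium and received either (+)-JQ1, the active form, or (−)-JQ1, its mirror image and inactive control. The only controls used here are the (−)-JQ1 groups. Each was given at 0.2 or 0.5 µM and for 12 or 24 h, which makes 8 groups of 3 libraries, and the labels describe the triplicates as independent preparations of cells. A passaged primary culture is a mixture of cells, so less RNA per cell and fewer cells of a type cannot be told apart in any value below.

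The FPKM files do not carry read numbers, so absolute depth is unknown, and the steps between low values put relative depth between 0.939 and 1.05. Summed FPKM per library ranged from 431766 to 870653, because the short RNA gene Mir5105 took 42.7% of the sum in the first (−)-JQ1 library and 46.9% in the second (+)-JQ1 library at 0.2 µM and 24 h, against at most 6.69% in the other 22. For Ep300, Crebbp, Smarca2 and Ash1l, results at that dose and time are given with and without these libraries. For Brwd1, Brd7 and Trim28 the values of these libraries are pointed out, but fold changes are given only with them. Hexim1, a gene widely used as a readout of BET inhibition, was 51.1 to 72.1 FPKM with (+)-JQ1 and 16.8 to 21.8 FPKM with (−)-JQ1, with no overlap. The 7 neural progenitor markers summed to between 3150 and 7457 FPKM per library, so markers of the labelled cell type were present in all 24 libraries.

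Zmynd8, a reader protein that binds acetylated and methylated histone H3, Kat2a, the acetyltransferase GCN5 of the SAGA and ATAC complexes, and Brd9, a subunit of the non-canonical SWI/SNF complex, were lower with (+)-JQ1 in all 4 enantiomer comparisons. Being lower in all 4 was not rare, since 14.6% of the genes tested were called so. No member was higher in all 4, as 5.84% of the genes tested were. Across the 4 comparisons, 16 of the 31 members were called in none, where 49.1% of all genes tested were called in none. Smarca2 was lower in 3 comparisons, Brwd1 in 2, and Kat2b and Smarca4 in 1 each. Brpf3 was higher in 2, and 7 members were higher in 1.

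Member calls, at an adjusted p under 0.05 in limma, were counted for each dose and time. In the 12 h pair at 0.2 µM, 0 members rose and 4 fell, against 8.23% and 19.6% of all genes tested. With 0.5 µM for 12 h, 2 rose and 6 fell, against 12.2% and 26.1%. The counts with 0.2 µM for 24 h were 4 rising and 4 falling, against 11% and 21.8%. With 0.5 µM for 24 h, 3 rose and 5 fell, against 13.7% and 24.5%. In either direction, 12.9%, 25.8%, 25.8% and 25.8% of the members were called, beside 27.9%, 38.3%, 32.8% and 38.2% of all genes.

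**Figure D1:**
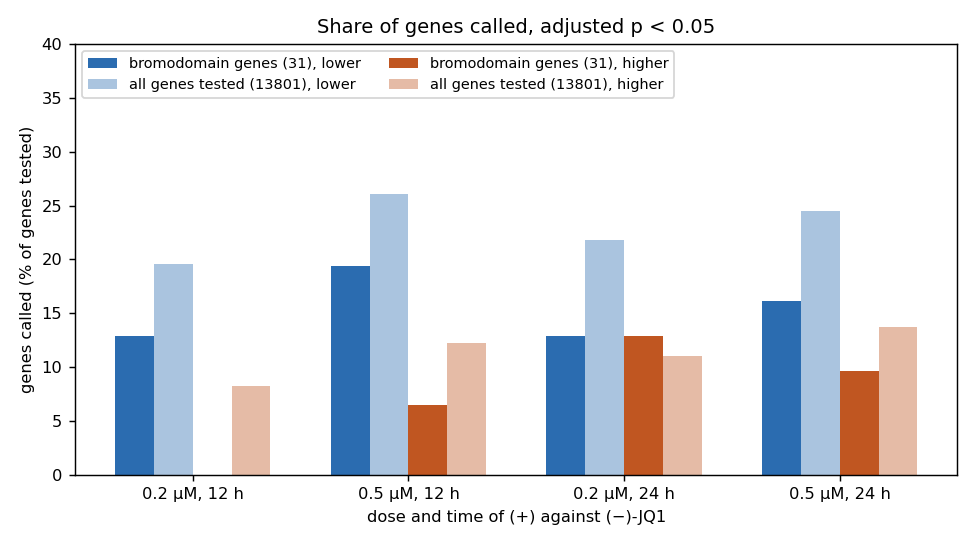
Bars give the percentage of the 31 tested bromodomain genes (dark) and of all 13801 genes tested (light) called lower (blue) or higher (orange) with (+)-JQ1 against (−)-JQ1, on an axis from 0, for each dose and time. The dark blue bar is below its light neighbour in all 4 comparisons, and the dark orange bar is above its neighbour only at 0.2 µM and 24 h (12.9% against 11%).

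The centre of the members lay slightly above that of the genome. Their median log2 fold change was 0.11, 0.12, 0.13 and 0.07 in the order of comparisons above, beside −0.07, −0.10, −0.07 and −0.05 for all genes tested. All fold changes are on the log2(FPKM + 1) scale, which understates the change of genes with low values. The split between higher and lower depended on how libraries were scaled. With each library divided by its median ratio to the others, the median of all genes moved up by 0.08, 0.10, 0.09 and 0.08, and 6, 8, 9 and 6 members were higher and 3, 6, 3 and 3 lower. All genes then gave 13%, 19%, 18.1% and 19.7% higher and 16.5%, 21.9%, 17.8% and 21.4% lower. Brd8 and Baz2b were then called higher in all 4 comparisons, in place of 1 each, and Zmynd8, Kat2a and Brd9 were called lower in all 4 under both scalings. Calls absent without that scaling were also those of Trim28 at 0.5 µM and 12 h, of Baz2a, Cecr2 and Trim33 at 0.2 µM and 24 h, of Trim24 with 0.5 µM for 24 h, of Trim24, Brpf3 and Atad2 with 0.2 µM for 12 h, and of Brd1, Brwd3 and Phip, given with each gene.

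Counts of members whose 3 (+) and 3 (−) libraries did not overlap were compared with the same counts over all genes tested. Members entirely above were 7, 10, 5 and 6 of 31, or 22.6%, 32.3%, 16.1% and 19.4%, where all genes tested gave 16.8%, 20.7%, 11.7% and 18.7%. Those entirely below were 7, 9, 3 and 7, or 22.6%, 29%, 9.68% and 22.6%, where all genes gave 30.2%, 37.5%, 22.3% and 29.4%.

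**Figure D2:**
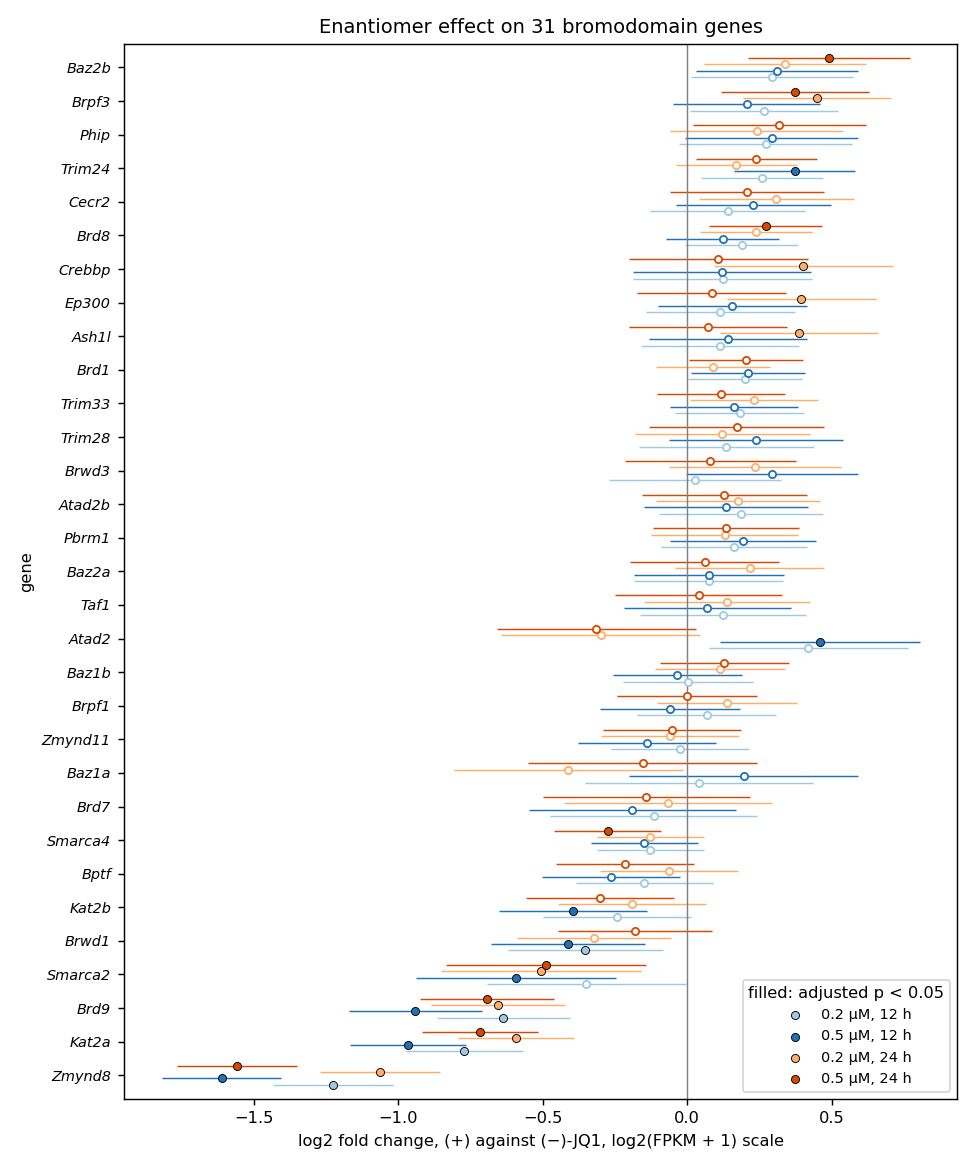
Each row is 1 of the 31 tested genes, ordered by mean effect, and each point is the log2 fold change of (+) against (−)-JQ1 at 1 dose and time with its 95% confidence interval from limma. Filled points passed an adjusted p of 0.05. Zmynd8, Kat2a and Brd9 have 4 filled points each to the left of 0, from −0.59 to −1.61, and most other rows lie between −0.5 and 0.5 with open points.

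For the 3 members called lower in all 4 comparisons, the sequence just upstream is shown, from the RefSeq table of mouse promoters on GRCm38.p6 (the study's reads were aligned to the older build mm9). The table held 26 of the 32 members. In the 250 bases before each start, 7 motifs were searched on both strands: the E-box CACGTG, the GC box GGGCGG, the CCAAT box CCAAT, the cAMP response element TGACGTCA, the NRF1 site GCATGCGC, the ETS core CCGGAAG and the TATA box TATAAA. Capitals mark a whole match, and bases that overlap an annotated exon were left out.

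Kat2a, chr11:100712468-100712717, minus strand, the only start in the table: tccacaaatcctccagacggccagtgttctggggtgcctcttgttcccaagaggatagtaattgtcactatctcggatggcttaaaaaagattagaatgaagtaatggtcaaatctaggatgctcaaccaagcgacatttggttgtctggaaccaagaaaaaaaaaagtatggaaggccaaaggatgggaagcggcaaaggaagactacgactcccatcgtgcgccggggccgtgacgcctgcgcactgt

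Zmynd8, chr2:165884875-165885088, minus strand, bases −250 to −37 before the most upstream of 5 starts in the table, those nearer to it lying in a Zmynd8 exon of the GENCODE annotation: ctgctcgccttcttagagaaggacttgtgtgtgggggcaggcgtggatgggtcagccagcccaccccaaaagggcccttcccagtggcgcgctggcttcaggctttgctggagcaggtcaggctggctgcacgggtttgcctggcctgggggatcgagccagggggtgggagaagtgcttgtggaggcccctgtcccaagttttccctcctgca

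Brd9, chr13:73937785-73937810, plus strand, the 26 bases between the first exon of its divergent neighbour Trip13 and its own start: gccccaccctgacCCGGAAGcacttg

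The windows of these 3 genes had little in common. The Kat2a and Zmynd8 windows held none of the 7 motifs, while the Brd9 window held 4 GC boxes, none of them whole within the bases printed, and the ETS core shown. For Zmynd8 and Brd9, with 5 and 2 starts in the table, this covers only the window of the most upstream start. Among 36 windows of members, 58.3% held a GC box and 8.33% the ETS core. Over 32851 windows of the same length, 32.7% held a GC box and 6.91% the ETS core. The shares for the others were 6.02% for the E-box, 33.9% for CCAAT, 1.55% for the cAMP response element, 2.26% for the NRF1 site and 12.4% for the TATA box. GC content was 48.8% for Kat2a, 62.0% for Zmynd8 and 72.4% for Brd9, with a median of 52.4% over all windows. A match is a run of letters, not a bound site, and its absence says only that those letters are not in the window.

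The members differed widely in abundance. Per length, 4 had a median of at least 50 FPKM over the 24 libraries, namely Trim28 at 87.4, Smarca4 at 66.1, Zmynd11 at 63.3 and Brd7 at 53.1 FPKM. Another 4 lay between 20 and 50, 15 between 10 and 20, and 8 between 1 and 10 FPKM. Zmynd8, with a median of 10.9 FPKM, had the widest range of the tested members, its highest library being 4.27 times its lowest, followed by Atad2 at 3.00 and Brd9 at 2.77. The members' FPKM together summed to between 589 and 699 per library with (+)-JQ1 and between 617 and 719 with (−)-JQ1, which overlap.

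Among the histone acetyltransferases, Kat2a was lower throughout. At 0.2 µM and 12 h, Kat2a was 12.1, 12.7 and 13.7 FPKM with (+)-JQ1 and 20.3, 24.0 and 23.6 FPKM with (−)-JQ1. At 0.5 µM and 12 h it was 10.6, 10.6 and 11.0 against 21.0, 23.001 and 21.8 FPKM. All 6 libraries of (+)-JQ1 at 12 h were thus well below all 6 of (−)-JQ1. At 24 h Kat2a was 13.6, 13.9 and 12.6 against 22.4, 19.05 and 20.5 FPKM at 0.2 µM, and 10.2, 10.6 and 11.6 against 15.9, 18.7 and 20.9 FPKM at 0.5 µM. The groups did not overlap at any dose and time. The log2 fold changes were −0.77, −0.97, −0.59 and −0.72, each ± 0.10 (SE), with limma adjusted p between 8.12e-08 and 7.26e-05.

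Kat2b, the PCAF paralogue that can take the place of Kat2a in SAGA and ATAC, was called lower only at 0.5 µM and 12 h. The log2 fold change there was −0.39 ± 0.12 (limma adjusted p = 0.0147), and that call was lost without the third (+)-JQ1 library (−0.32). Its other log2 fold changes were −0.24, −0.19 and −0.30 and did not pass. The Kat2b values with (+)-JQ1 were nevertheless all below those with (−)-JQ1 except at 0.2 µM and 24 h, where the groups overlapped. The ratio of Kat2a to Kat2b FPKM, given as a description, was 2.13 ± 0.28 with (+)-JQ1 and 3.08 ± 0.15 with (−)-JQ1 at 0.2 µM and 12 h (SD, n = 3). It was 2.01 ± 0.32 against 2.97 ± 0.12 at 0.5 µM and 12 h, and 2.13 ± 0.22 against 2.85 ± 0.51 at 0.2 µM and 24 h. Only at 0.5 µM and 24 h, with 1.82 ± 0.25 against 2.49 ± 0.69, did these ratios overlap.

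Ep300 and Crebbp encode the paralogous acetyltransferases p300 and CBP. At 12 h, Ep300 was 16.7, 20.5 and 15.6 FPKM with (+)-JQ1 and 16.1, 18.2 and 14.1 with (−)-JQ1 at 0.2 µM, and 16.1, 18.8 and 17.5 against 15.3, 17.4 and 14.2 at 0.5 µM. After 24 h it was 16.2, 15.9 and 16.5 against 12.8, 13.4 and 10.2 FPKM at 0.2 µM, and 17.7, 14.03 and 16.03 against 15.7, 13.2 and 15.96 FPKM at 0.5 µM. Only the groups at 0.2 µM and 24 h were apart, and there the (−)-JQ1 group was the lowest of the 8 while the (+)-JQ1 group was near the rest. The log2 fold change there was 0.39 ± 0.12 (adjusted p = 0.0183), against 0.11, 0.16 and 0.08 elsewhere, which did not pass.

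Crebbp was likewise apart only at 0.2 µM and 24 h. At 12 h, Crebbp was 14.5, 17.9 and 12.6 FPKM with (+)-JQ1 and 12.6, 15.98 and 12.3 with (−)-JQ1 at 0.2 µM, and 15.1, 14.9 and 14.95 against 13.7, 15.3 and 12.3 at 0.5 µM. By 24 h the values were 12.6, 10.4 and 14.9 against 9.16, 9.21 and 9.35 FPKM at 0.2 µM, and 12.9, 10.9 and 15.3 against 11.3, 10.3 and 14.7 FPKM at 0.5 µM. There the (−)-JQ1 group was again the lowest of the 8, and the log2 fold change was 0.40 ± 0.15 (adjusted p = 0.043). Elsewhere it was 0.12, 0.12 and 0.11 with intervals that included 0. The Crebbp to Ep300 ratio overlapped between enantiomers in all 4 comparisons. Without the libraries of high Mir5105, the values at 0.2 µM and 24 h were 0.45 for Ep300 and 0.52 for Crebbp, and both passed. Both calls were lost when the fit held only the libraries compared or weighted the libraries, and that of Crebbp also with no filter on low values. When single libraries were left out, the Ep300 call was lost without the third (+)-JQ1 library (0.38) or the third (−)-JQ1 library (0.28) of that dose and time. The Crebbp call held only without the second (+)-JQ1 library, and was lost in the other 5 such fits (0.28 to 0.41).

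Of the 4 scaffolds of MYST acetyltransferase complexes, 0, 0, 1 and 2 were called higher in the 4 comparisons and 0 lower. They are Brd1, Brpf1 and Brpf3, which assemble the MOZ, MORF and HBO1 enzymes, and Brd8, a subunit of the TIP60 complex. Over all genes tested, 8.23%, 12.2%, 11% and 13.7% were higher. Median-ratio scaling added upward calls of Brd1, Brpf3 and Brd8. At 12 h, Brpf3 was 6.78, 8.60 and 6.53 FPKM with (+)-JQ1 and 5.94, 6.36 and 5.34 with (−)-JQ1 at 0.2 µM, and 6.17, 8.38 and 6.70 against 5.96, 6.76 and 5.25 at 0.5 µM. The 24 h libraries had 7.08, 7.93 and 8.16 against 5.70, 4.93 and 5.53 FPKM at 0.2 µM, and 7.15, 7.29 and 7.55 against 5.57, 4.63 and 6.21 FPKM at 0.5 µM. The groups overlapped only at 0.5 µM and 12 h. Brpf3 rose at 24 h, by 0.45 ± 0.12 at 0.2 µM (adjusted p = 0.00749) and 0.37 ± 0.12 at 0.5 µM (adjusted p = 0.0205), and its 0.26 and 0.21 at 12 h did not pass. The call at 0.2 µM was lost with library weights and in a fit to the libraries compared, and that at 0.5 µM without the third (+)-JQ1 library (0.35) or the second (−)-JQ1 library (0.28).

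Brd8 rose at 0.5 µM and 24 h by 0.27 ± 0.09 (adjusted p = 0.0258). There it ranged over 17.8–20.8 FPKM with (−)-JQ1 and 21.2–25.6 FPKM with (+)-JQ1. The call was lost in a fit to the libraries compared and in 4 of the 6 fits that left out 1 library (0.21 to 0.27). In the RefSeq annotation Brd8 overlaps Kif20a, a mitotic kinesin gene, and the strand of the reads is not given in the sources used here, so reads of these genes may be mixed. Of the other members called, Ash1l overlaps the coding gene Dap3, Baz2b the coding gene Gm13570 and an lncRNA gene, and Brd9, Brpf3, Cecr2, Smarca2 and Zmynd8 overlap lncRNA genes, with the same limit. Among those described but not called, Brd7 overlaps Adcy7, Pbrm1 overlaps Smim4 and Trim28 overlaps Gm31649. Brd1 had log2 fold changes of 0.20, 0.21, 0.09 and 0.20 and Brpf1 of 0.07, −0.06, 0.14 and 0.00, and neither passed in any comparison. With median-ratio scaling, Brd1 was called higher in all but the comparison at 0.2 µM and 24 h (adjusted p between 0.00441 and 0.0143).

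Within SWI/SNF, whose ATPases are encoded by Smarca4 (BRG1) and Smarca2 (BRM), each call was downward. At 0.2 µM and 12 h, Brd9 was 14.8, 14.3 and 13.7 FPKM with (+)-JQ1 and 24.1, 21.8 and 22.4 FPKM with (−)-JQ1. At 0.5 µM and 12 h it was 11.2, 10.4 and 11.7 against 21.5, 24.0 and 21.2 FPKM. At 24 h Brd9 was 18.3, 16.8 and 15.5 against 24.8, 28.2 and 28.2 FPKM at 0.2 µM, and 16.2, 17.4 and 12.99 against 27.04, 28.8 and 21.3 FPKM at 0.5 µM. No (+)-JQ1 library reached a (−)-JQ1 library of the same dose and time. Its log2 fold changes were −0.64, −0.94, −0.65 and −0.69, each ± 0.11, with adjusted p between 8.11e-07 and 0.000164.

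Brd7, the paralogue of Brd9 found in the PBAF complex, was not called in any comparison, with log2 fold changes of −0.12, −0.19, −0.07 and −0.14. The Brd9 to Brd7 ratio was 0.273 ± 0.0203 with (+)-JQ1 against 0.402 ± 0.0390 with (−)-JQ1 at 0.2 µM and 12 h, and 0.225 ± 0.0150 against 0.396 ± 0.0623 at 0.5 µM and 12 h. These did not overlap, nor did those at 0.5 µM and 24 h, but those at 0.2 µM and 24 h did. There the highest (+)-JQ1 ratio, 0.510, was that of the library with high Mir5105, and the lowest (−)-JQ1 ratio was 0.495. Brd7 was lowest of its group in both libraries with high Mir5105, at 32.9 FPKM with (+)-JQ1 and 36.4 FPKM with (−)-JQ1. Trip13, a checkpoint gene that shares the upstream region of Brd9, was present at 0.298 to 2.16 FPKM. It was lower at 0.2 µM and 12 h (−0.56 ± 0.18, adjusted p = 0.0242) and at both doses at 24 h (−0.78 and −0.77 ± 0.18, adjusted p = 0.00228 and 0.0019), and was −0.26 at 0.5 µM and 12 h, which did not pass.

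Smarca2 was lower in 3 comparisons. At 12 h, Smarca2 was 29.01, 29.9 and 31.04 FPKM with (+)-JQ1 and 36.5, 39.1 and 39.8 with (−)-JQ1 at 0.2 µM, and 24.0, 24.9 and 27.1 against 36.7, 38.5 and 40.9 at 0.5 µM. After 24 h its values were 29.9, 20.5 and 32.4 against 26.9, 46.7 and 46.6 FPKM at 0.2 µM, and 32.6, 29.2 and 26.4 against 44.4, 43.3 and 37.1 FPKM at 0.5 µM. The groups overlapped only at 0.2 µM and 24 h, where the 20.5 and the 26.9 FPKM came from the libraries with high Mir5105. Log2 fold changes were −0.35, −0.59, −0.51 and −0.49, each ± 0.17, with adjusted p of 0.132, 0.0072, 0.0235 and 0.024. Without those libraries the value at 0.2 µM and 24 h was −0.57. Median-ratio scaling ended both calls at 24 h. At 0.2 µM the call was also lost in a fit to the libraries compared (−0.51, adjusted p = 0.241) and without the second (+)-JQ1 library (−0.31), the second (−)-JQ1 library (−0.38) or the third (−)-JQ1 library (−0.38), and at 0.5 µM in 4 of the 6 fits that left out 1 library (−0.42 to −0.49).

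Smarca4, the more abundant ATPase gene, was called once. At 12 h, Smarca4 was 63.0, 68.3 and 71.4 FPKM with (+)-JQ1 and 72.3, 74.7 and 74.4 with (−)-JQ1 at 0.2 µM, and 65.96, 66.2 and 70.9 against 74.3, 77.3 and 73.8 at 0.5 µM. By 24 h it was 56.2, 51.0 and 60.1 against 58.98, 60.5 and 63.2 FPKM at 0.2 µM, and 54.8, 49.9 and 55.6 against 66.5, 57.5 and 71.1 FPKM at 0.5 µM. The groups overlapped only at 0.2 µM and 24 h. Its log2 fold changes were −0.13, −0.15, −0.13 and −0.28, each ± 0.09, and only the last passed (adjusted p = 0.0178), a call that was lost with median-ratio scaling and in a fit to the libraries compared. It was lost, too, without the second (+)-JQ1 library (−0.23) or the (−)-JQ1 library numbered 1 (−0.26) or 3 (−0.21). The ratio of Smarca2 to Smarca4 was 0.444 ± 0.0143 against 0.521 ± 0.0151 at 0.2 µM and 12 h and 0.374 ± 0.00915 against 0.515 ± 0.0333 at 0.5 µM and 12 h, without overlap, and overlapped at 24 h. At 0.2 µM and 24 h the lowest (−)-JQ1 ratio, 0.457, was that of the library with high Mir5105, and the highest (+)-JQ1 ratio was 0.539. Pbrm1, the PBAF subunit with several bromodomains, was between 0.13 and 0.19 and did not pass in any comparison.

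**Figure D3:**
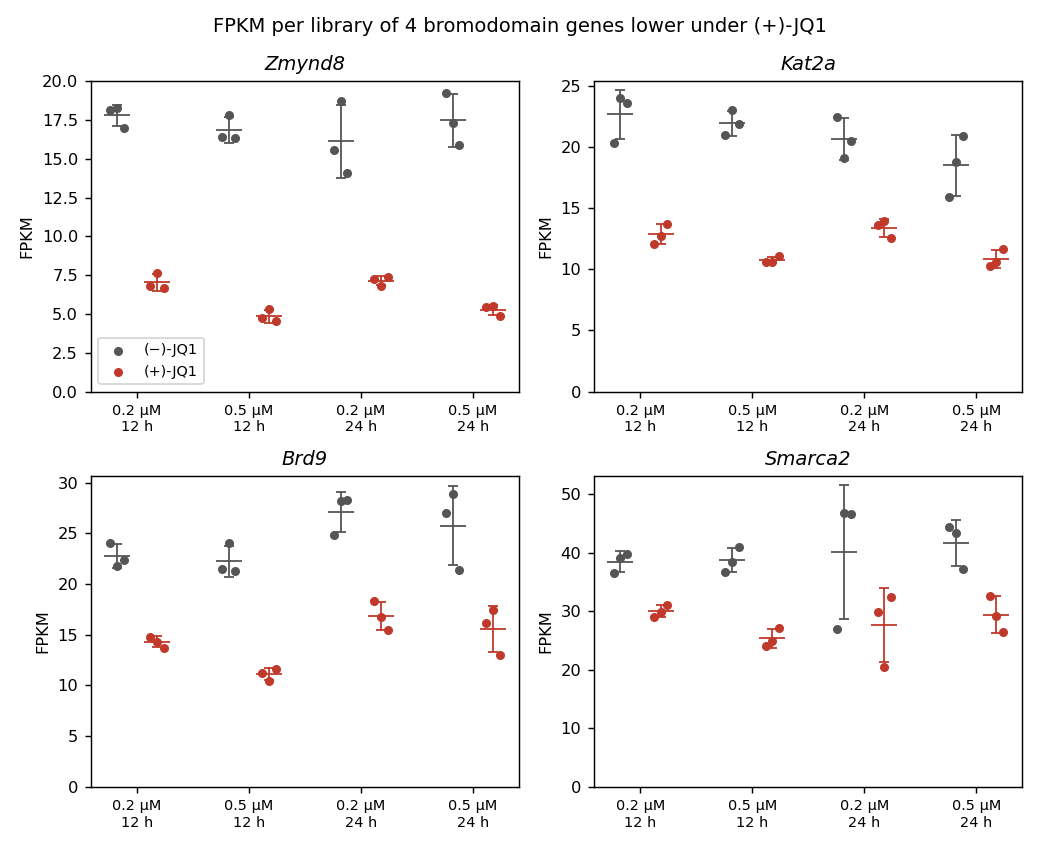
Points are FPKM per library (axis from 0) for the 4 genes called lower in at least 3 comparisons, grey for (−)-JQ1 and red for (+)-JQ1, with the group mean and SD (n = 3) as bars, at each dose and time. For Zmynd8, Kat2a and Brd9 the red and grey points are apart in each pair of groups, while for Smarca2 they overlap at 0.2 µM and 24 h.

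The genes for partners of ISWI-type remodellers were mostly not called. Of Baz1a, Baz1b, Baz2a, Baz2b, Bptf and Cecr2, only Baz2b passed, once. Baz2b, whose protein pairs with ISWI ATPases, rose at 0.5 µM and 24 h, where it ranged over 6.48–7.71 FPKM with (−)-JQ1 and 8.94–11.9 FPKM with (+)-JQ1. That was a log2 fold change of 0.49 ± 0.13 (adjusted p = 0.00609), and its 0.29, 0.31 and 0.34 elsewhere did not pass. Bptf, the large NURF subunit, ranged from −0.26 to −0.06, Baz1b (WSTF) from −0.03 to 0.13, Baz2a (TIP5) from 0.06 to 0.22, and Cecr2 from 0.14 to 0.31. Baz1a (ACF1) was 0.04 and 0.20 at 12 h and −0.41 and −0.15 at 24 h, with standard errors of 0.19.

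The TRIM members are co-regulators with a paired PHD finger and bromodomain. Trim28 (KAP1), which recruits silencing enzymes to zinc finger repressors, was the most abundant member. At 12 h, Trim28 was 80.7, 95.9 and 96.7 FPKM with (+)-JQ1 and 75.3, 83.7 and 89.3 with (−)-JQ1 at 0.2 µM, and 87.9, 105 and 99.3 against 78.1, 87.2 and 81.4 at 0.5 µM. The values at 24 h were 87.7, 113 and 89.4 against 107, 66.3 and 96.6 FPKM at 0.2 µM, and 81.4, 81.8 and 91.2 against 68.0, 73.0 and 85.3 FPKM at 0.5 µM. The groups were apart only at 0.5 µM and 12 h, and the 113 and 107 FPKM were again the libraries with high Mir5105. The log2 fold changes of 0.14, 0.24, 0.12 and 0.17, each ± 0.15, did not pass, the widest interval reaching 0.54.

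Trim24 (TIF1α) rose at 0.5 µM and 12 h, where it ranged over 23.1–25.5 FPKM with (−)-JQ1 and 31.02–32.7 FPKM with (+)-JQ1, by 0.37 ± 0.10 (adjusted p = 0.00571). Its 0.26, 0.17 and 0.24 elsewhere did not pass. Trim33 (TIF1γ), which takes part in TGF-β signalling, lay between 0.12 and 0.23 and was called in none. Trim66 was too low to test, at 0 to 0.0479 FPKM with (+)-JQ1 and 0.0201 to 0.334 FPKM with (−)-JQ1. Its (+)-JQ1 libraries were the lower ones within each dose and time, but all these values are near the floor.

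Of the genes for WD repeat and AAA ATPase proteins, Brwd1 fell at 12 h. At 12 h, Brwd1 was 14.9, 15.2 and 14.4 FPKM with (+)-JQ1 and 18.3, 20.3 and 19.1 with (−)-JQ1 at 0.2 µM, and 12.6, 13.95 and 13.9 against 18.7, 18.5 and 17.5 at 0.5 µM. After 24 h the levels were 14.4, 18.8 and 15.7 against 25.4, 15.2 and 22.2 FPKM at 0.2 µM, and 16.7, 14.3 and 14.3 against 16.8, 17.997 and 16.8 FPKM at 0.5 µM. The groups overlapped only at 0.2 µM and 24 h, where the 18.8 and the 25.4 FPKM were from the high Mir5105 libraries. In log2 terms the changes were −0.35, −0.41, −0.32 and −0.18, each ± 0.13, with adjusted p of 0.0453, 0.0142, 0.0589 and 0.294. The call at 0.2 µM was lost with no filter on low values, with median-ratio scaling and in each of the 6 fits that left out 1 library (−0.32 to −0.38). That at 0.5 µM was lost without the first (+)-JQ1 library (−0.37). The related genes Brwd3 (0.03 to 0.29) and Phip (0.24 to 0.32) were not called, although with median-ratio scaling Brwd3 was called higher at 0.5 µM and 12 h (adjusted p = 0.0307) and Phip at 0.5 µM at both times (adjusted p = 0.0372 and 0.0345).

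Atad2, an AAA ATPase gene commonly expressed with S phase genes, was the member whose values differed most between times. At 12 h it was 1.71 to 2.45 FPKM with (+)-JQ1 and 1.13 to 1.46 FPKM with (−)-JQ1 over both doses, without overlap. The 24 h values were 1.40 to 2.53 with (+)-JQ1 and 1.59 to 3.40 with (−)-JQ1, with overlap. The 4 log2 fold changes were 0.42 ± 0.17 (adjusted p = 0.0647) and 0.46 ± 0.17 (adjusted p = 0.0325) at 12 h, and −0.30 and −0.31 at 24 h, which did not pass. The 1 call was lost in 4 of the 6 fits that left out a library (0.40 to 0.47). The difference of the effect between times was −0.72 ± 0.23 at 0.2 µM (adjusted p = 0.678) and −0.77 ± 0.23 at 0.5 µM (adjusted p = 0.237), and neither passed. Its paralogue Atad2b was 0.13 to 0.19 and was not called.

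Zmynd8 had the largest fold changes of the 31 members in all 4 comparisons. At 0.2 µM and 12 h, Zmynd8 was 6.82, 7.67 and 6.66 FPKM with (+)-JQ1 and 18.1, 18.3 and 16.996 FPKM with (−)-JQ1. At 0.5 µM and 12 h it was 4.74, 5.29 and 4.52 against 16.4, 17.9 and 16.3 FPKM. At 24 h Zmynd8 was 7.27, 6.81 and 7.40 against 15.6, 18.7 and 14.1 FPKM at 0.2 µM, and 5.44, 5.49 and 4.87 against 19.3, 17.3 and 15.9 FPKM at 0.5 µM. The highest (+)-JQ1 library, at 7.67 FPKM, was below the lowest (−)-JQ1 library, at 14.1 FPKM. As log2 fold changes these were −1.23, −1.61, −1.06 and −1.56, each ± 0.10, with adjusted p between 6.39e-11 and 5.74e-08.

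All 6 (+)-JQ1 libraries at 0.5 µM had less Zmynd8 than the 6 at 0.2 µM, but the difference of the enantiomer effect between doses did not pass over all genes. It was −0.39 ± 0.14 at 12 h (adjusted p = 1) and −0.50 ± 0.14 at 24 h (adjusted p = 0.239). Zmynd11, its paralogue and a reader of trimethylated histone H3.3, was not called, at −0.02, −0.14, −0.06 and −0.05. The Zmynd8 to Zmynd11 ratio was 0.113 ± 0.00816 against 0.282 ± 0.0119 at 0.2 µM and 12 h and 0.0841 ± 0.00643 against 0.265 ± 0.00500 at 0.5 µM and 12 h. At 24 h the ratio was 0.119 ± 0.00606 against 0.255 ± 0.0126 at 0.2 µM and 0.0754 ± 0.00499 against 0.241 ± 0.0125 at 0.5 µM, and no pair of groups overlapped.

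Of the remaining readers, only Ash1l was called. Taf1, the largest TFIID subunit, was 0.04 to 0.14 and not called. Ash1l, a histone H3 lysine methyltransferase, rose only at 0.2 µM and 24 h, by 0.39 ± 0.13 (adjusted p = 0.0279), and the (−)-JQ1 group of that dose and time, 8.91 to 13.4 FPKM, overlapped the (+)-JQ1 group, 12.3 to 15.6 FPKM. Without the libraries of high Mir5105 it was 0.45 and passed. The call was lost in a fit to the libraries compared and in 4 of the 6 fits that left out 1 library (0.27 to 0.36).

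**Figure D4:**
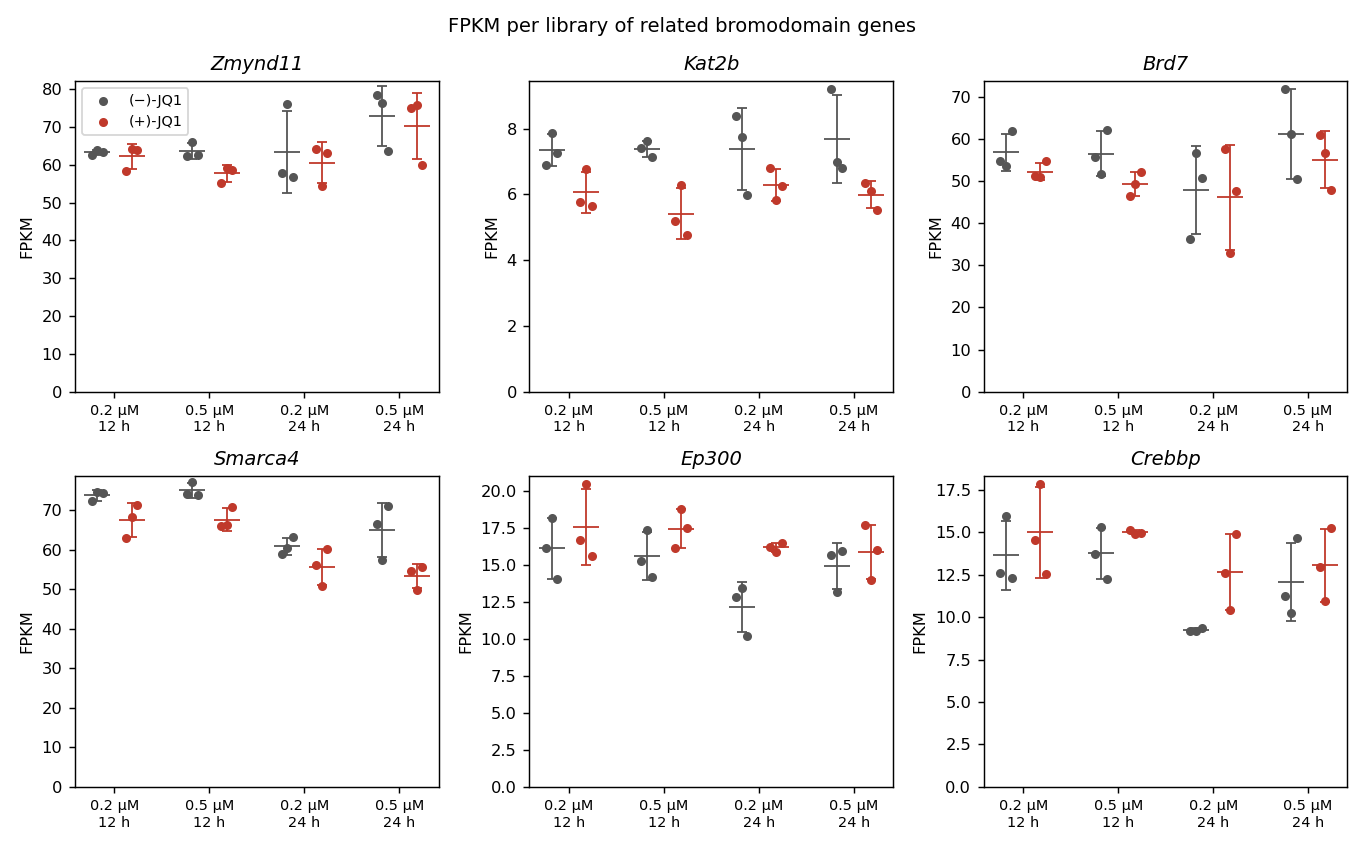
Points are FPKM per library (axis from 0) for Zmynd11, Kat2b and Brd7, the paralogues of the 3 genes lower throughout, and for Smarca4, Ep300 and Crebbp, with the mean and SD (n = 3) as bars, grey for (−)-JQ1 and red for (+)-JQ1. Zmynd11 and Brd7 overlap between enantiomers at most doses and times. Kat2b and Smarca4 overlap only at 0.2 µM and 24 h, and their red points are below the grey elsewhere. Ep300 and Crebbp are apart only at 0.2 µM and 24 h, where their grey points are lowest.

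Dose and time were also examined directly. The difference of the enantiomer effect between doses passed limma's threshold for 0 members at 12 h and 0 at 24 h, and that between times for 0 at 0.2 µM and 0 at 0.5 µM, each with 1 member at an unadjusted p under 0.05, namely Zmynd8 for dose and Atad2 for time. Across all genes tested, 0.0435%, 0.29%, 0.0217% and 0.326% passed. Within (−)-JQ1, 0.5 against 0.2 µM gave 0 members called at 12 h and 0 at 24 h, beside 0% and 0.00725% of all genes called. At an unadjusted limma p under 0.05 there were 0 members at 12 h and 6 at 24 h. Leaving out the second (−)-JQ1 library at 0.2 µM and 24 h raised the members called at 24 h from 0 to 5. No share over all genes is given for the unadjusted counts or for that fit, so neither is read as a dose effect particular to the members. These comparisons reuse the libraries above and are not separate evidence.

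In (−)-JQ1 alone, 4 members changed between 12 and 24 h over both doses, 1 higher and 3 lower, where 11% and 4.62% of all genes were called, and 15.6% in either direction. Atad2 rose, from 1.13–1.46 FPKM at 12 h to 1.59–3.40 FPKM at 24 h, by 0.58 ± 0.12 (adjusted p = 0.00163). Smarca4 fell, from 72.3–77.3 FPKM to 57.5–71.1 FPKM, a log2 change of −0.24 ± 0.06 (adjusted p = 0.0117), without overlap. Crebbp (−0.35 ± 0.11, adjusted p = 0.029) and Cecr2 (−0.30 ± 0.09, adjusted p = 0.0297) were lower at 24 h with overlapping ranges. The calls of Crebbp and Cecr2 were lost in 5 and 7 of the 12 fits that left out 1 library, and those of Smarca4 and Cecr2 in a fit to the libraries compared. Zmynd8, Kat2a and Brd9 were not among them.

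Genes of the partner complexes were counted by the same test, from lists written from general knowledge. Over all genes tested, as above, 8.23%, 12.2%, 11% and 13.7% were higher and 19.6%, 26.1%, 21.8% and 24.5% lower. Brd2, a BET gene, was higher in all 4 comparisons (0.59, 0.77, 0.55 and 0.56, each ± 0.11, adjusted p at most 0.00041). Of 4 other bromodomain genes, 2 were tested, and 0, 0, 2 and 0 of them were higher. Of 24 SWI/SNF partners, 1, 2, 3 and 4 were higher (4.17%, 8.33%, 12.5% and 16.7%) and 5, 8, 7 and 5 lower (20.8%, 33.3%, 29.2% and 20.8%). Dpf3 and Dpf1 are alternative subunits of the neuronal form of the complex. Dpf3 was higher (0.94, 1.13, 0.69 and 0.83, each ± 0.21), and Dpf1 was lower (−0.66, −0.77, −0.71 and −0.94, each ± 0.13), in all 4.

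Of 23 SAGA and ATAC partners of Kat2a and Kat2b, 3, 3, 2 and 2 were higher (13%, 13%, 8.7% and 8.7%) and 6, 6, 5 and 6 lower (26.1%, 26.1%, 21.7% and 26.1%). Supt3h (Supt3), a SAGA core subunit, was lower in all 4 (−0.86, −0.84, −0.73 and −0.76, each ± 0.14). Trrap, the scaffold that SAGA shares with TIP60, was higher in all 4 (0.61, 0.74, 0.79 and 0.61, each ± 0.17). Of 21 partners in the MOZ, MORF, HBO1 and TIP60 complexes, 1, 2, 4 and 2 were higher (4.76%, 9.52%, 19% and 9.52%) and 4, 3, 4 and 2 lower (19%, 14.3%, 19% and 9.52%). Ruvbl1, an ATPase of TIP60 and INO80, was lower in all 4 (−0.60, −0.83, −0.57 and −0.88, each ± 0.13), and Phf16 (Jade3), an HBO1 scaffold, was higher in 3 (0.44, 0.37 and 1.03, each ± 0.14), its 0.31 at 0.2 µM and 12 h not passing.

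Of 14 ISWI partners and histone chaperones, 0 were higher and 2, 3, 6 and 5 lower (14.3%, 21.4%, 42.9% and 35.7%). Smarca1, the ISWI ATPase SNF2L, was lower in all 4 (−0.56, −0.88, −0.70 and −0.86, each ± 0.13). Chaf1a, the large subunit of a replication-coupled chaperone, was lower in 3 (−0.49, −0.84 and −0.95, each ± 0.19), its −0.43 at 0.2 µM and 12 h not passing. Of 12 TFIID subunits that work with Taf1, 5, 5, 4 and 4 were higher (41.7%, 41.7%, 33.3% and 33.3%) and 1, 2, 2 and 1 lower (8.33%, 16.7%, 16.7% and 8.33%). Taf5 was higher in all 4 (0.80, 0.75, 0.74 and 0.78, each ± 0.11) and Taf9b lower in all 4 (−0.60, −0.66, −0.66 and −0.81, each ± 0.10).

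Cell type markers moved with the enantiomers beside these genes. The 9 oligodendrocyte lineage markers summed to 415 to 1195 FPKM with (+)-JQ1 and 1504 to 2140 FPKM with (−)-JQ1, without overlap, and 7, 8, 6 and 8 of them were called lower. The 6 astrocyte markers were 433 to 1020 FPKM against 918 to 1733 FPKM, apart within each dose and time, with 5, 6, 5 and 6 called lower. The 7 neural progenitor markers summed to 4420 to 7457 FPKM with (+)-JQ1 and 3150 to 5385 with (−)-JQ1, overlapping at 0.2 µM and 24 h, with 3, 4, 1 and 5 called higher and 0 lower. The 5 neuron markers found summed to 122 to 269 FPKM against 103 to 195 FPKM, with 2 called higher in each comparison and 2, 3, 1 and 2 called lower. The part of these cell types in the lower values of Zmynd8, Kat2a, Brd9 and Smarca2 was not tested. Markers of non-neural cells were scarce, summing to at most 3.89 FPKM for microglia, 6.63 for endothelium, 10.3 for pericytes and fibroblasts and 0.293 for erythroid cells.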

How the data were processed

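RNA was measured in 24 libraries of cultured mouse neural progenitor cells. The authors deposited FPKM per gene symbol. Per the submitters' processing notes, FastQC, TopHat2 and the build mm9 were used; versions, the program that computed FPKM, its annotation and the use of strand are not given in the sources used here.

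Each file held 26694 entries, of which 58 entries of 29 repeated symbols were left out. Values entered as log2(FPKM + 1), for genes that reached 1 FPKM in 3 or more libraries, were fitted with limma 3.58.1 in R 4.3.3: 1 mean per group, all 24 libraries sharing 1 estimate of spread (16 residual degrees of freedom), empirical Bayes with trend and robust settings, and Benjamini-Hochberg adjustment over all genes tested, with a threshold of 0.05. In 78.4% of 2085 low genes the values were whole multiples of a step within 1%, which gave relative depth; reads were not recovered, so no count test was run.

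The members and the lists of partners and markers were chosen with earlier results of these data known. Values in every library are given for members called in at least 2 enantiomer comparisons and for Smarca4, Ep300, Crebbp and Trim28. Of each partner list, at most the 2 genes with the largest mean change among those called in at least 2 were named. Trip13 was chosen after its position beside Brd9 was seen. Partner genes were matched through older symbols in the RefSeq gene table, and those with no match were left out.

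Alternatives were another pseudocount, no filter and a stricter filter, median-ratio scaling, library weights, the replicate number as a block, a fit to only the libraries compared, leaving out the libraries with high Mir5105, and leaving out each library in turn.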

Additional observations from a re-analysis of the deposited data

How the results depend on the processing

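Zmynd8, Kat2a and Brd9 remained called lower in all 4 enantiomer comparisons under every alternative, and no called member result changed direction. Counts of members higher were less stable. Shares over all genes were given above for the enantiomer comparisons under median-ratio scaling, and are not set beside the other counts in this section. From those counts alone, a move particular to the members cannot be told from a move of all genes, and none is claimed. Median-ratio scaling gave 6, 8, 9 and 6 higher in the 4 comparisons (in place of 0, 2, 4 and 3), 3 lower at 0.5 µM and 24 h (in place of 5), and 6 lower with time in (−)-JQ1 (in place of 3). Library weights gave 3 and 8 higher at 12 h at 0.2 and 0.5 µM, 2 higher at 0.2 µM and 24 h, 2 higher with time in (−)-JQ1, and 1 member with a different effect between times at 0.5 µM. A fit to only the libraries compared gave 2, 6 and 0 higher at 0.2 µM and 12 h, 0.5 µM and 12 h, and 0.2 µM and 24 h, and 1 lower with time. The filter at 5 FPKM gave 1 higher at 0.5 µM and 12 h and 0 higher with time. Without the 2 libraries of high Mir5105, 1 was higher at 0.2 µM and 12 h, 5 at 0.5 µM and 24 h, and 3 higher and 5 lower with time.

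With the replicate block, 1 member was higher at 0.2 µM and 12 h, and the other counts stayed within 1.5 times, but Brwd1 at 0.2 µM and 12 h and Crebbp at 0.2 µM and 24 h were no longer called. Same-numbered libraries correlated between −0.345 and 0.358 in their deviations from the group means. At 0.2 µM and 12 h all 3 pairs were above 0.1 (0.105, 0.133 and 0.112), and in the other 3 comparisons at least 1 pair was not, so the numbers were not taken as pairing the samples across the series.

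Leaving out each library in turn gave 0 to 1, 1 to 2, 1 to 9 and 1 to 5 members higher, and 3 to 3, 5 to 6, 3 to 5 and 3 to 6 lower, in the 4 comparisons. At 0.2 µM and 24 h, members higher numbered 2, 7 and 1 without (+)-JQ1 library 1, 2 and 3 and 2, 9 and 1 without (−)-JQ1 library 1, 2 and 3. At 0.5 µM and 12 h, 1 was higher without (+)-JQ1 library 2 or 3 or (−)-JQ1 library 1 or 3. At 0.5 µM and 24 h, 5 were higher without the first and 1 without the second (−)-JQ1 library, and 3 were lower without the second (+)-JQ1 or first (−)-JQ1 library. With time in (−)-JQ1 it gave 1 to 3 higher and 1 to 5 lower, for the effect between times at 0.5 µM 0 to 1, and for dose within (−)-JQ1 at 24 h 0 to 5. Of the member results called, 234 kept and 20 lost the call under the alternatives other than leaving out 1 library, and 165 kept and 51 lost it when 1 was left out. With 3 libraries a group and no read numbers, changes of low members such as Atad2 and Trim66 are the least certain.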
